A study of Homo sapiens with 10 samples.

Results

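The regions described here are 7839 places in the genome of a breast epithelial cell line where STAT3 and NFKB1 were both listed after transformation and neither was listed before, while FOS, JUN and JUNB were listed in both states. They are called gain sites below. They make up 9.77% of the 80265 STAT3 peaks of transformed cells on chromosomes 1 to 22 and X (Wilson 95% interval 9.56 to 9.97%), and the 10 peak lists of the series together hold 879550 peaks on those chromosomes. A STAT3 peak of transformed cells was taken as a gain site when an NFKB1 summit of transformed cells lay within 300 bp of its summit, when no STAT3 or NFKB1 summit of non-transformed cells lay within 300 bp, and when a summit of each of the 3 AP-1 proteins lay within 300 bp in each of the 2 states. The sites were thus chosen by measured peaks of all 10 libraries, and the presence or absence of each protein at these sites follows from it.

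MCF10A-ER-Src is a non-tumorigenic human mammary epithelial line whose added oncogenic Src kinase is joined to a hormone-binding part of the estrogen receptor and is switched on by tamoxifen. Every library comes from this line. Non-transformed cells carry EtOH in their sample names, and transformed cells received 1 µM 4-hydroxy-tamoxifen (TAM) for 12 h. In the headers of the lists the libraries are named for 36 h of EtOH and 12 h of TAM, so the states may differ in culture time as well as in tamoxifen. ChIP-seq, which sequences the DNA that an antibody brings down with a protein, was made for FOS, JUN, JUNB, NFKB1 and STAT3, with 1 library for each protein in each state. The labels name STAT3 as a target, but the catalogue number of its antibody is that of one sold against tyrosine-phosphorylated STAT3, so the STAT3 peaks of both states may be those of the phosphorylated form only. With 1 library a group no difference was tested, and the intervals cover the sampling of sites, not the spread between cultures.

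AP-1 is a family of dimeric transcription factors built from JUN and FOS proteins, and it occupies many enhancers of epithelial cells already in the resting state. FOS dimerizes with a JUN protein and does not bind DNA as a homodimer. JUN and JUNB can pair with FOS or with each other. STAT3 is activated by tyrosine phosphorylation, downstream of IL-6 family receptors or of Src, which favours the dimers that bind its DNA motif, and some of it is nuclear without that signal. NFKB1 encodes p105 and its processed form p50, a DNA-binding NF-κB subunit. Inhibitor proteins keep much of NF-κB, though not all of it, from DNA until an inflammatory signal destroys them. In Src-transformed mammary cells these factors are known as parts of one inflammatory circuit.

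Signal is given as pileup, the number of extended reads over a summit, per 1000000 reads left after filtering (RPM). The libraries held 4837474 to 22082403 such reads, with the fewest in NFKB1 of non-transformed cells. Filtering removed the largest parts in non-transformed JUNB (18317168 to 9178601 reads) and non-transformed STAT3 (20488488 to 10929003). Their transformed partners went from 22858649 to 15750765 and from 11637618 to 8967267. The part of this in the JUNB ratios and the STAT3 absence was not tested. The NFKB1 library of transformed cells was 2.0 times as deep as its partner, JUNB 1.72 times, FOS 1.19 times, JUN 1.16 times and STAT3 0.821 times. By the library names, FOS, JUN and NFKB1 pair replicates of the same letter and JUNB and STAT3 pair replicates of different letters. No sequence is shown, because the lists use hg19 and the genome at hand is GRCh38.

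Each step of the rule removed a different share of the STAT3 peaks. Of the 80265 peaks, 49456 (61.6%) had no STAT3 summit of non-transformed cells within 300 bp, and 21757 (27.1%) also had NFKB1 in transformed cells. Only 2379 of these were dropped for NFKB1 in non-transformed cells, which left 19378 (24.1%). All 3 AP-1 proteins were listed in transformed cells at 14562 of them (18.1% of all peaks), and 7839 had all 3 in non-transformed cells too. Thus 53.8% of the sites that gained STAT3 and NFKB1 and held 3 AP-1 proteins after transformation had held all 3 before it. Other groups of STAT3 peaks serve as references: 2617 that were gained at AP-1 sites of both states with no NFKB1, 5339 where all 5 proteins were listed in both states, and 2512 where STAT3 and AP-1 were gained together.

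The STAT3 and NFKB1 peaks of the gain sites were mostly of middle rank in their lists. The rule used these lists and left out sites with an earlier STAT3 or NFKB1 peak, so the levels are a description only. STAT3 stood at a median of 1.23 RPM in transformed cells (11 reads in the pileup, 8.35-fold over the local background), with the central 90% of sites between 0.669 and 3.57 and the highest at 11.2. Its median site lay at percentile 50.3 of the STAT3 list by pileup. NFKB1 stood at 1.03 RPM (10 reads, 6.99-fold), with the central 90% between 0.620 and 2.17 and the highest at 6.62, and its median site lay at percentile 58.1 of its list. Only 255 gain sites (3.25%) were in the top 10 percent of the STAT3 list, 323 (4.12%) in that of NFKB1, and 51 (0.651%) in both. Both proteins were above their list medians at 3049 sites (38.9%) and both below at 1801 (23%). Where all 5 proteins were listed in both states the medians were higher, at 2.90 for STAT3 and 2.27 for NFKB1, and at the STAT3 gains without NFKB1 the STAT3 median was 0.892.

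Before transformation AP-1 at the gain sites was near the level of all sites that held the 3 proteins in both states, which include them. It was higher than at such sites with no earlier STAT3 or NFKB1. In non-transformed cells the FOS median was 2.09 RPM (39 reads, 20.8-fold over background) and lay at percentile 81.1 of the FOS list. JUNB stood at 1.74 RPM (16 reads, 11.3-fold, percentile 72.7) and JUN at 0.820 (13 reads, 7.84-fold, percentile 64.8). After transformation the medians were 2.22 for FOS (49 reads, 24.1-fold, percentile 88.5), 2.03 for JUNB (32 reads, 17.9-fold, percentile 81.8) and 1.46 for JUN (27 reads, 14.3-fold, percentile 83.7). The high percentiles follow in part from the rule, which asks for a peak in all 6 AP-1 lists: over all 37052 FOS summits of non-transformed cells that meet the same AP-1 rule, the earlier medians were 2.26 RPM for FOS (percentile 83.0), 0.883 for JUN (69.4) and 1.74 for JUNB (72.7). The 17202 of these with neither STAT3 nor NFKB1 within 300 bp before stood at 1.88 for FOS, 0.757 for JUN and 1.53 for JUNB. Where neither was gained (4143 sites) the earlier medians were 1.66, 0.631 and 1.42. Levels of different proteins come from different antibodies and are not compared with each other. In each of the 6 AP-1 libraries the gain sites lay between the reference groups: in non-transformed cells FOS was at 1.83, JUN at 0.694 and JUNB at 1.42 where STAT3 came without NFKB1, and at 3.28, 1.51 and 2.29 where all 5 proteins were in both states. The peaks were also wider after transformation, from a median of 281 to 351 bp for FOS, 209 to 270 bp for JUN and 211 to 288 bp for JUNB. The deeper library of each of these pairs is that of transformed cells, and its part in the width was not tested.

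**Figure D1:**
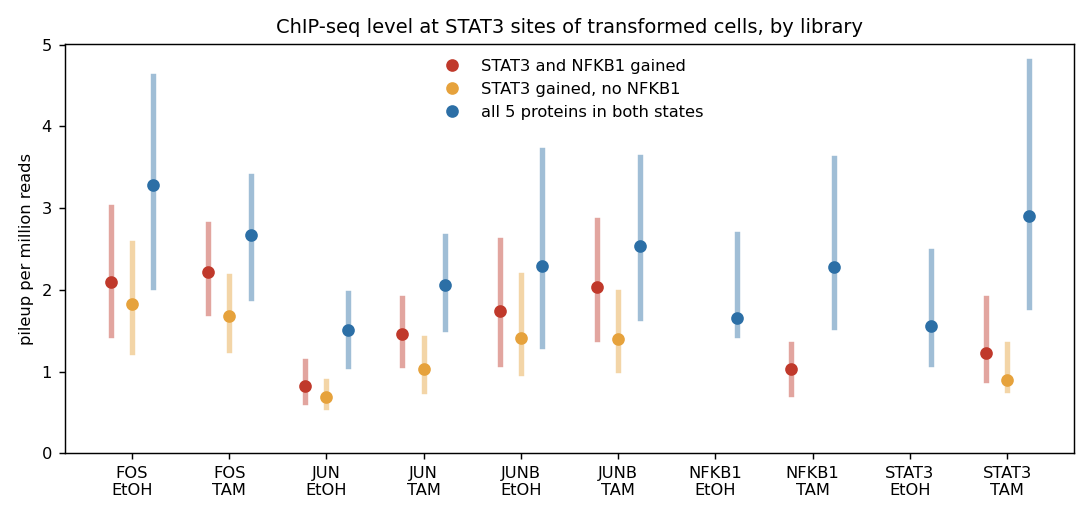
Pileup in RPM (y axis, linear from 0) in each of the 10 libraries (x axis) for 7839 gain sites (red), 2617 sites that gained STAT3 without NFKB1 (yellow) and 5339 sites of all 5 proteins in both states (blue). Points are medians and bars run from the 25th to the 75th percentile of sites; no point is drawn where the group has no peak by its rule. Red lies between yellow and blue in every AP-1 library, from 2.09 to 2.22 for FOS and from 0.820 to 1.46 for JUN.

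JUN was the AP-1 protein whose signal was most shifted at the gain sites. Its median log2 ratio of transformed to non-transformed was 0.72 (order-statistic 95% interval 0.71 to 0.73), against 0.37 over all 64622 JUN sites held in both states, a set that includes the gain sites. JUN was at least 2-fold higher at 2392 gain sites (30.5%), against 14.6% of all JUN sites held in both states, and at least 2-fold lower at 8 (0.102%), against 1.28%. Its ratio was above 0 at 7085 sites (90.4%). When the ratios were centred on all JUN sites, the gain-site median was 0.35 and 13.1% of the gain sites were at least 2-fold higher. All JUN sites need not hold FOS and JUNB in both states, as the gain sites must. Over the 37052 FOS summits that meet the AP-1 part of the rule, the JUN medians were 0.883 RPM before and 1.41 after. At the gain sites they were 0.820 and 1.46. A median JUN ratio over that matched set was not computed, so the part of the shift particular to the gain sites is not known.

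JUNB had a median log2 ratio of 0.16 (0.14 to 0.18) at the gain sites and -0.06 over all 55765 JUNB sites held in both states. It was at least 2-fold higher at 1026 gain sites (13.1%, background 7.74%) and at least 2-fold lower at 256 (3.27%, background 7.47%). With fold enrichment in place of RPM the JUNB median was 0.56, and that of all JUNB sites 0.34. The ratio is thus above 0 at the median gain site on each scale used, while its size depends on the scale.

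FOS had a median log2 ratio of -0.01 (-0.02 to 0.01) at the gain sites, against -0.09 over all 99959 FOS sites held in both states. Its sign depended on the scale: it was 0.09 after centring, 0.12 by fold enrichment and -0.08 among peaks with a −log10 q of at least 10. FOS was at least 2-fold higher at 712 gain sites (9.08%, background 8.43%) and at least 2-fold lower at 157 (2.0%), against 6.72%. The pooled share higher mixes levels, since 5041 of the gain sites were in the strongest of 4 bins of mean level, where 2-fold differences were rare. Within those bins, from the weakest to the strongest, FOS was at least 2-fold higher at 11.1%, 27.3%, 18.8% and 3.05% of gain sites and at 4.36%, 15.1%, 12.3% and 1.76% of all FOS sites. Only 63 gain sites were in the weakest bin.

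The reference groups with AP-1 peaks in both states had lower AP-1 ratios. The 2512 sites where STAT3 and AP-1 were gained together have no ratio, since no AP-1 peak was listed there before. Where STAT3 was gained without NFKB1 the medians were -0.17 for FOS, 0.57 for JUN and -0.10 for JUNB, and where all 5 proteins were in both states they were -0.36, 0.43 and 0.07. Strong sites and weak sites differ in their ratios, so gain sites and all sites were also set against each other within 4 bins of the mean level of both states. From the weakest to the strongest bin the gain-site median exceeded that of all sites by 0.17, 0.36, 0.25 and 0.17 for FOS, by 0.32, 0.34, 0.24 and 0.17 for JUN, and by 0.29, 0.29, 0.19 and 0.09 for JUNB. The excess was thus above 0 in all 12 comparisons and lowest in the strongest bin for JUN and JUNB. All sites of a protein need not hold the other AP-1 proteins, as the gain sites must, and the part of that requirement in the excess was not tested. Over the 37052 FOS summits that meet the AP-1 part of the rule, FOS medians before and after were 2.26 and 2.08 RPM. Those of JUN were 0.883 and 1.41 and those of JUNB 1.74 and 1.84. These comparisons are not equally firm, since the weakest FOS bin held only 63 gain sites.

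**Figure D2:**
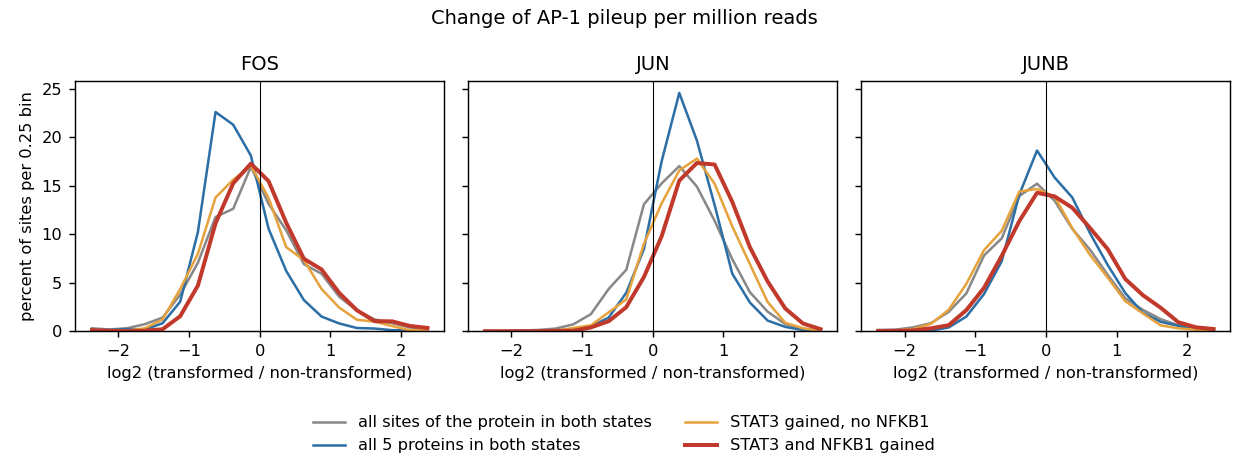
Percent of sites (y axis) in bins of 0.25 of the log2 ratio of RPM, transformed over non-transformed (x axis), for FOS, JUN and JUNB. The gain sites are in red, sites that gained STAT3 without NFKB1 in yellow, sites of all 5 proteins in both states in blue and all sites of the protein held in both states in grey, with values beyond 2.5 placed in the end bins. The red curve is centred near -0.01 for FOS, 0.72 for JUN and 0.16 for JUNB, to the right of the grey one in each panel.

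The 3 AP-1 ratios were also read together, beside the 37052 AP-1 sites of both states, a background added after the gain-site values were seen, with the gain sites among them. All 3 ratios were above 0 at 2886 gain sites (36.8%, background 23%) and all 3 below 0 at 340 (4.34%, background 7.74%). At 4403 sites (56.2%, background 63.7%) no AP-1 protein differed by 2-fold in either direction. At least 1 was 2-fold higher at 3093 sites (39.5%, background 27%), all 3 at 187 (2.39%, background 1.01%), and JUN alone at 1684 (21.5%, background 16%). With each protein centred on its own sites of both states, all 3 ratios were above 0 at 36.4% of gain sites and 22.5% of the AP-1 sites, at least 1 protein was 2-fold higher at 28.4% and 18.1%, and JUN alone at 7.78% and 5.13%. The JUN ratio exceeded the FOS ratio at 81.6% of gain sites and the JUNB ratio at 77.8%, against 85% and 78.5% of the AP-1 sites, so this order was no more frequent at the gain sites. Part of it is the shift of all JUN sites, since after centring the shares were 63.2% and 56.6%.

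The AP-1 ratios were higher where STAT3 in transformed cells was higher. With the gain sites in 5 bins from the lowest to the highest STAT3 level, the median FOS ratio was -0.18, -0.13, -0.03, 0.02 and 0.34. That of JUN was 0.59, 0.66, 0.72, 0.78 and 0.91, and that of JUNB was -0.06, 0.02, 0.16, 0.22 and 0.54. Before transformation the FOS median was 1.99 RPM in the lowest and 1.99 in the highest STAT3 bin, that of JUN 0.757 and 0.820 and that of JUNB 1.63 and 1.63. After transformation the medians of the lowest and the highest STAT3 bin were 1.86 and 2.72 for FOS, 1.19 and 1.68 for JUN and 1.65 and 2.54 for JUNB. The 5 bins of NFKB1 gave the same order from the lowest to the highest for each protein, from -0.09 to 0.24 for FOS, from 0.66 to 0.81 for JUN and from -0.01 to 0.43 for JUNB. In the lowest and the highest NFKB1 bin the levels before transformation were 0.757 and 0.946 RPM for JUN, 1.53 and 1.85 for JUNB and 1.93 and 2.2 for FOS. Across the 7839 sites Spearman's rho of STAT3 with AP-1 in non-transformed cells was 0.018 for FOS, 0.070 for JUN and 0.010 for JUNB, and with AP-1 in transformed cells 0.357, 0.262 and 0.285. For NFKB1 the values were 0.100, 0.231 and 0.105 before and 0.358, 0.333 and 0.318 after, and STAT3 with NFKB1 gave 0.325. These correlations run across sites, which share the DNA, the mappability and the depth of each library, and sites are not independent replicates.

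How often AP-1 sites without an earlier STAT3 or NFKB1 peak had them after transformation was counted from the AP-1 side. Absence before is absence from the peak lists, and the NFKB1 list of non-transformed cells comes from the shallowest library. Some sites counted as gained may thus have held NFKB1 unlisted before. Of the FOS summits of non-transformed cells, 37052 had all 3 AP-1 proteins in both states, and 17202 of these had neither STAT3 nor NFKB1 within 300 bp before transformation. After transformation 7781 of the 17202 (45.2%, 44.5 to 46.0%) had both, 2619 (15.2%) STAT3 alone, 2659 (15.5%) NFKB1 alone and 4143 (24.1%) neither. The count differs slightly from 7839 because it is taken at FOS summits. NFKB1 was listed at 74.8% of the sites that gained STAT3 and at 39.1% of those that did not, and STAT3 at 74.5% of the sites that gained NFKB1 and at 38.7% of those that did not.

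The share that gained both was larger where the earlier AP-1 signal was higher. Sorted into 10 bins by the summed FOS, JUN and JUNB RPM of non-transformed cells, 35.5% of the weakest and 70.1% of the strongest bin gained both, and 31.5% and 7.67% gained neither. The sum adds signals of different antibodies and serves only to order the sites, with JUN weighing least by its lower RPM. Gain sites were thus found at every earlier AP-1 level, with 596 to 1206 in each bin. The share was 31.5% in the lowest and 70.8% in the highest of 5 bins by JUN, 36.1% and 61.0% by FOS, and 40% and 58.0% by JUNB. Sorted by the AP-1 sum of transformed cells the spread was wider, from 12.2% to 85.5%. NFKB1 was listed more often with gained STAT3 than without it in every bin of the earlier AP-1 level, with 67.8% against 33.8% in the weakest and 88.3% against 62.8% in the strongest. Sites where AP-1 rose also gained both more often: the share was 21.9% where the JUN log2 ratio was below -0.5 and 68.2% where it was at least 1.5, with 29.1% and 67.0% for FOS and 26.7% and 84.1% for JUNB.

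**Figure D3:**
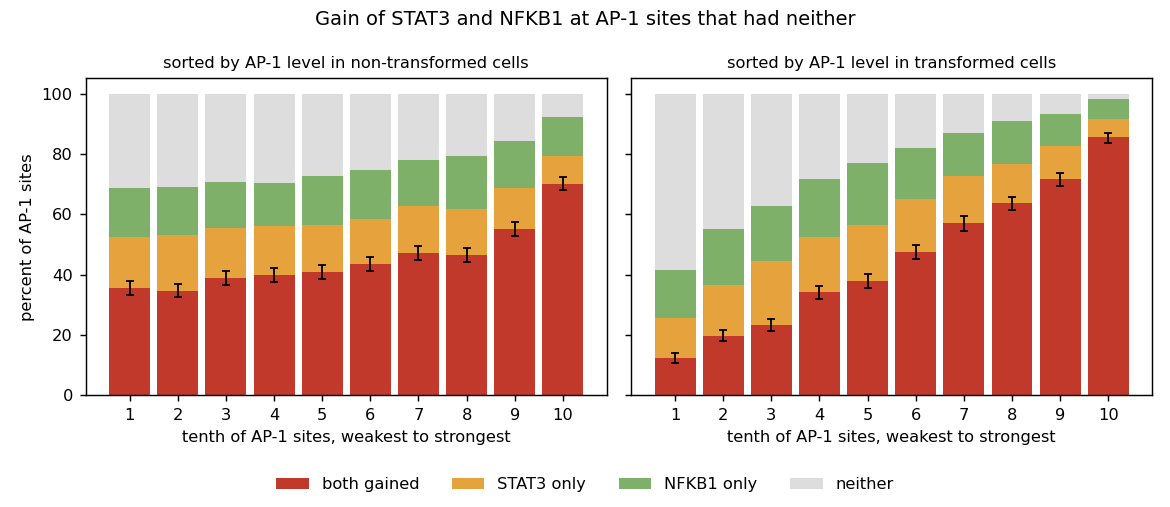
Percent of AP-1 sites without STAT3 or NFKB1 in non-transformed cells (17202 sites, y axis) that gained both proteins, 1 of them or neither, in 10 bins by the summed FOS, JUN and JUNB RPM (x axis) of non-transformed cells on the left and transformed cells on the right. Error bars are Wilson 95% intervals of the share that gained both. The red share runs from 35.5% to 70.1% on the left and from 12.2% to 85.5% on the right.

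The summits of all 5 proteins lay close together at the gain sites. In part this follows from the rule, which asked for each within 300 bp of the STAT3 summit. The 5 summits of transformed cells spanned a median of 51 bp (50 to 52 bp), and at most 50 bp at 3835 sites (48.9%). AP-1 summits of transformed cells were closest, with medians of 13 bp between FOS and JUN, 13 bp between FOS and JUNB and 14 bp between JUN and JUNB. STAT3 lay 23 bp from FOS, 24 bp from JUN and 25 bp from JUNB, and NFKB1 lay 23 bp from each of them. STAT3 and NFKB1 were farther from each other, at 29 bp (28 to 30 bp), with 70.8% of sites within 50 bp. The same protein moved little between states, by 11 bp for FOS, 20 bp for JUN and 16 bp for JUNB. The FOS distance from STAT3 was about as long at the reference groups, with 24 bp both without NFKB1 and at sites of all 5 proteins, and 25 bp where AP-1 was gained as well. Among the 4558 gain sites where STAT3 and NFKB1 both lay at least 10 bp from the FOS summit, they lay on the same side of it at 2957 (64.9%, 63.5 to 66.2%). Both sides are taken from the same FOS summit, so scatter of that summit alone can place both on the same side. No reference share was computed, so nothing is read from this value. The median pileup behind a summit was 10 reads for NFKB1, 11 for STAT3 and 49 for FOS, and the part of read number in the distances was not tested.

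**Figure D4:**
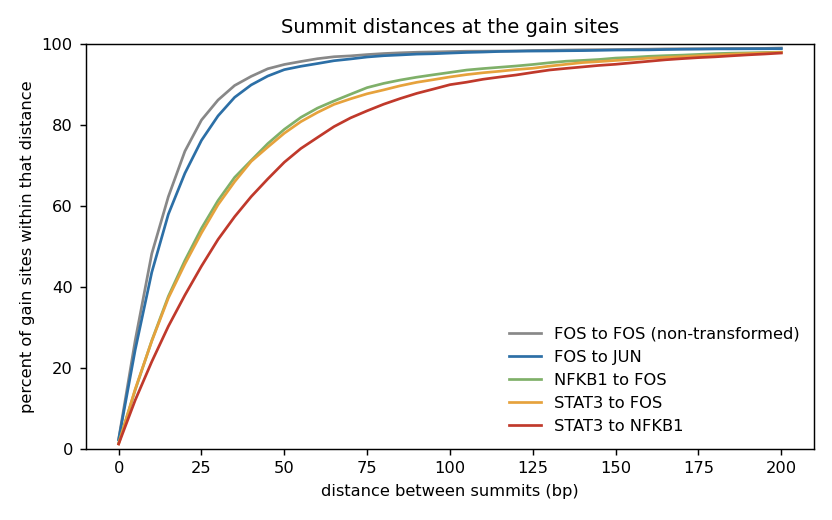
Cumulative percent of the 7839 gain sites (y axis) by the distance between 2 summits (x axis, bp), in transformed cells unless marked. The lines for FOS against JUN and for FOS in both states rise fastest, with medians of 13 and 11 bp, those for STAT3 and NFKB1 against FOS follow at 23 bp each, and STAT3 against NFKB1 is last at 29 bp.

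The absence before transformation is an absence from peak lists of unequal depth. If a gain site had held the same share of reads before, its STAT3 pileup in the non-transformed library would have been a median of 13.4 reads, and 7822 sites (99.8%) would have reached 5 reads, the lowest pileup in that list. Fewer would have reached its 25th percentile of 8 reads, with 7039 (89.8%), or its median of 10, with 5463 (69.7%). The corresponding NFKB1 pileup is a median of 5.00 reads, and 5806 sites (74.1%) would have reached 4 reads, the lowest in that list, 2652 (33.8%) its 25th percentile of 6 reads and 1091 (13.9%) its median of 8. At the remaining sites equal NFKB1 would have stayed under the lowest listed pileup, whereas equal STAT3 would have reached it at nearly all. Of all NFKB1 peaks of transformed cells, 83.8% had no NFKB1 summit within 300 bp in non-transformed cells. Ignoring the NFKB1 list of non-transformed cells altogether gave 8920 sites. When STAT3 and NFKB1 in transformed cells also had to reach the median RPM of their own non-transformed lists, 949 sites were left, with AP-1 medians of 0.30 for FOS, 0.84 for JUN and 0.53 for JUNB.

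Some gain sites had earlier binding just past the 300 bp that the rule leaves free. A STAT3 summit lay 301 to 1000 bp away at 671 sites (8.56%) and an NFKB1 summit at 179 (2.28%). The gain-site peak itself touched an earlier STAT3 peak at 49 sites and an earlier NFKB1 peak at 7.

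A set of 10 sites is named by the smallest sum of their ranks in the STAT3 and NFKB1 lists of transformed cells, and values are in RPM. The first, at chr3:40249124-40249718, had STAT3 at 7.25 and NFKB1 at 5.17. It had strong AP-1 before, with FOS going from 3.01 to 3.49, JUN from 1.07 to 1.95 and JUNB from 3.16 to 4.19, and its 5 summits spanned 173 bp. The second, at chr7:105985720-105986576, held the highest STAT3 of all gain sites at 11.2, with NFKB1 at 3.93. Its AP-1 was weak before, with FOS going from 0.483 to 3.58, JUN from 0.505 to 1.03 and JUNB from 0.981 to 1.90. Earlier STAT3 and NFKB1 summits lay 1266 and 1258 bp from this site. The third, at chr9:73081766-73082471, had STAT3 at 10.3 and NFKB1 at 3.51, and FOS went from 0.752 to 3.22, JUN from 0.568 to 2.33 and JUNB from 0.981 to 2.86. Its 5 summits lay within 17 bp of each other.

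The fourth site, at chr5:147603603-147604418, had STAT3 at 8.25 and NFKB1 at 4.55, with FOS from 1.4 to 3.49, JUN from 0.883 to 2.28 and JUNB from 1.20 to 3.49. The fifth, at chr4:157243801-157244106, had the highest NFKB1 of the 10 at 6.0 beside STAT3 at 5.58, with FOS from 1.77 to 4.03, JUN from 1.07 to 2.44 and JUNB from 1.63 to 4.38. All 3 AP-1 proteins were at least 2-fold higher at both. The sixth, at chr2:72201781-72202536, had STAT3 at 8.25 and NFKB1 at 3.0, with FOS from 0.752 to 3.40, JUN from 0.505 to 1.73 and JUNB from 1.31 to 2.92. The seventh, at chr10:119739758-119740139, had STAT3 at 5.91 and NFKB1 at 4.13, with JUN from 1.20 to 3.36, FOS from 2.36 to 3.58 and JUNB from 3.81 to 4.44. JUN was the only AP-1 protein at least 2-fold higher there.

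The eighth site, at chr3:141995618-141996088, had STAT3 at 7.69 and NFKB1 at 2.79, with FOS from 0.752 to 2.49, JUN from 0.946 to 1.08 and JUNB from 1.09 to 2.03. Earlier STAT3 and NFKB1 summits lay 848 and 874 bp away, so it drops out when absence is required within 1000 bp. The ninth, at chr11:9682531-9682835, had STAT3 at 5.58 and NFKB1 at 4.13, with FOS from 0.913 to 2.81, JUN from 0.442 to 0.813 and JUNB from 2.07 to 1.84. It is the one site of the 10 with a lower AP-1 value after transformation. The tenth, at chr2:228251212-228251765, had STAT3 at 5.58 and NFKB1 at 5.79, with FOS from 1.5 to 4.26, JUN from 1.26 to 2.98 and JUNB from 0.981 to 3.36. Across the 10 sites, 29 of 30 AP-1 ratios were above 0, and 8 sites had FOS at least 2-fold higher, against 9.08% of all gain sites. They were picked for high STAT3 and NFKB1 in transformed cells, where AP-1 ratios were higher among all gain sites too.

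**Figure D5:**
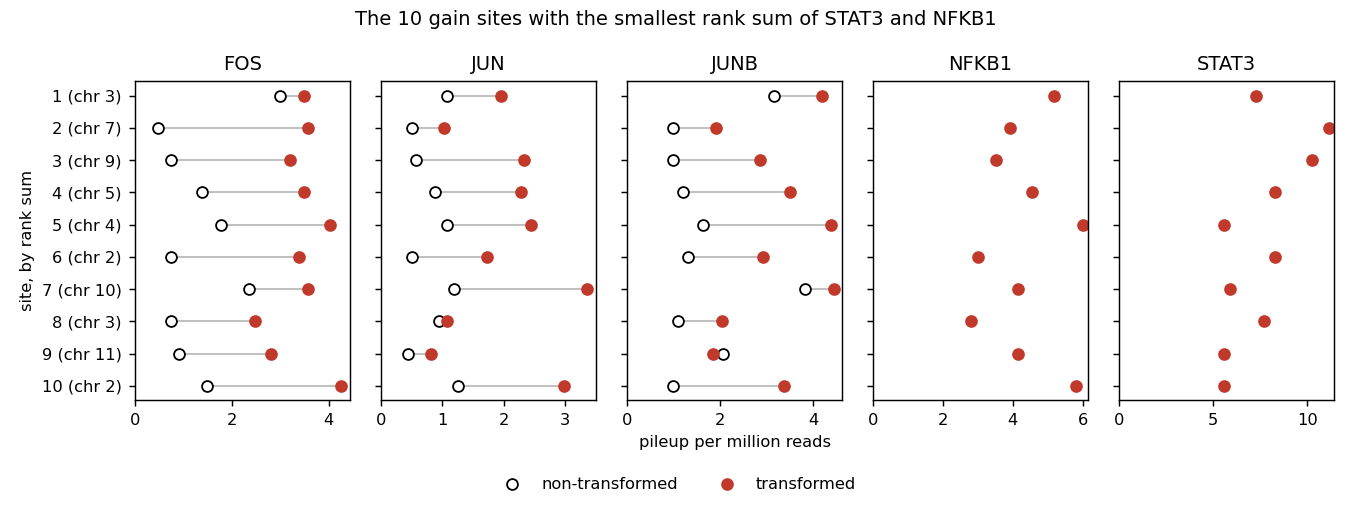
Pileup in RPM (x axis, from 0, with its own range in each panel) of the 5 proteins at the 10 gain sites with the smallest rank sum (y axis). Open circles are non-transformed and red circles transformed cells, joined by a line, with 1 library each and no error bar. NFKB1 and STAT3 have no open circle because no peak was listed before, and every AP-1 value but JUNB at site 9 is higher after transformation.

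The extremes of the AP-1 ratio were named among the 4479 gain sites whose 6 AP-1 pileups were all at or above their list medians. The largest mean log2 ratios were 1.94 at chr3:189898088-189898412, 1.70 at chr4:177824027-177824557 and 1.69 at chr5:150103507-150103872. At the first of these FOS went from 0.913 to 3.53 RPM, JUN from 0.694 to 2.44 and JUNB from 1.09 to 4.51, with NFKB1 at 5.17 and STAT3 at 3.12. The smallest were -0.99 at chr12:92320663-92320869, -0.89 at chr12:28731804-28731945 and -0.89 at chr11:94471231-94471349. At the first of these FOS went from 3.76 to 1.31, JUN from 1.32 to 1.14 and JUNB from 4.36 to 1.84, with NFKB1 at 0.724 and STAT3 at 1.56. The 3 sites with the largest rise had 16 to 50 NFKB1 and 22 to 66 STAT3 pileup reads, and the 3 with the largest fall 7 to 12 and 7 to 14.

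The limit of 300 bp decided few sites. The farthest required summit lay a median of 55 bp from the STAT3 summit and within 100 bp at 6276 sites. It lay 291 to 300 bp away at 52 gain sites, and 45 STAT3 peaks missed the rule by 1 to 10 bp. Just inside was chr1:31229464-31229812, with FOS of non-transformed cells at 300 bp, STAT3 at 12 pileup reads and NFKB1 at 8. Just outside was chr4:168203392-168203676, with JUN of non-transformed cells at 301 bp, STAT3 at 18 reads and NFKB1 at 7.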

How the data were processed

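The authors aligned reads with Bowtie to hg19 and called peaks in each library with MACS, per the labels. The deposited headers name MACS 2.0.10.20131216, a q-value cutoff of 0.05, 1 read kept per position and no control library. The deposited pileup (signal) counts extended reads and is not scaled for depth. The deposited fold enrichment is a ratio to the local background, and the deposited significance columns are −log10 values. Reads were extended by the authors to 114 to 150 bp, differently in each library. Summits, all peaks on chromosomes 1 to 22 and X, were joined at 300 bp by the nearest summit, using scipy 1.17.1, pandas 2.3.3 and numpy 2.4.6 under Python 3.11.15, and pileup was divided by filtered reads. The code was tested on simulated data. Change means at least 2-fold, with no test at 1 library a group. The gain sites, lists and named-site rule were chosen with earlier results of these data known. Sites named were the 10 smallest STAT3 and NFKB1 rank sums, the 3 largest and 3 smallest mean AP-1 ratios, and those at the 300 bp limit, and those on chromosome 8 were counted without being named. Alternatives covered the joining distance, significance, level, scale and lists left out. Between 31 and 447 peaks per list run past GRCh38 chromosome ends, so motifs, genes and annotation were not analysed here.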

Additional observations from a re-analysis of the deposited data

How the results depend on the processing

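No setting turned the direction of the JUN or JUNB ratio. Of 75 comparisons of main results with an alternative 34 moved by more than the interval of sites, and of 56 lesser ones 25 did. The number of gain sites, 7839, was 954 with a −log10 q of at least 10 and 949 with levels at the median of the non-transformed lists, and otherwise 7051 to 9901. At a −log10 q of at least 10 the median ratios were -0.084 (FOS) and 0.66 (JUN), and 4.51% (FOS), 21.2% (JUN) and 7.02% (JUNB) of sites were at least 2-fold higher. With levels at those medians the ratios were 0.30, 0.84 and 0.53, and the shares 18.4%, 38.6% and 24.6%. By fold enrichment they were 0.12, 0.82 and 0.56, and 11%, 36.4% and 26.3%. Centred on all sites they were 0.089, 0.35 and 0.22, and 11.1%, 13.1% and 15.0%. Leaving out the JUNB lists, chosen after seeing the data, gave 0.071 (FOS) and 0.67 (JUN), and 11.8% and 28.2%. The STAT3 to NFKB1 distance was 26 bp with presence within 150 bp, 23 bp with the stricter q and 24 bp with the level limit. The share of free AP-1 sites that gained both, also added after seeing the data, was 43.4% with presence within 150 bp, 44.3% with absence within 1000 bp and 45.3% counted at JUN summits. The cause of these shifts was not tested.

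No paired analysis was possible because every group holds a single library, which also leaves no replicate to omit. The motif, location and gene-list results and their alternatives were not run, since they need the genome and annotation of the build the lists use. Depth limits the absence of NFKB1 most, since equal binding would have given a median of 5.00 reads.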

Other observations

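The gain sites were spread over all chromosomes examined. On chromosome 19 they were 91 of 1561 STAT3 peaks (5.83%, Wilson 95% interval 4.77 to 7.10%), the lowest share, and on chromosomes 6, 18 and 21 they were 10.9%, 10.9% and 10.8%. These chromosomes were picked after their values were seen.

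Gain sites often had another gain site nearby. The median distance to the next was 73403 bp, and 1245 (15.9%, 15.1 to 16.7%) had one within 10000 bp, against 6.53% of the STAT3 gains without NFKB1 and 21.0% of the sites of all 5 proteins in both states. The groups differ in size, and a larger group is denser along the genome. A site of all 5 proteins in both states lay within 10000 bp of 767 gain sites (9.78%). Joined at that gap, 6594 gain sites stood alone, 531 groups held 2, 54 held 3, 4 held 4 and 1 held 5. The group of 5 covers 9278 bp of chromosome 12 (80079089 to 80088367), and one group of 4 covers 2313 bp of chromosome 1 (15681201 to 15683514), both picked after seeing the counts.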
